A study of Homo sapiens with 12 samples.

Results

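Messenger RNA for the machinery that makes and uses microRNAs (miRNAs) was followed across 3 lung cancer lines and 4 transfections. The members are 10 of the 34423 gene names on the array, DROSHA, DGCR8, XPO5, DICER1, TARBP2, EIF2C1 (current symbol AGO1), EIF2C2 (AGO2), TNRC6A, TNRC6B and TNRC6C. They were taken by name, as every gene probe that carried one of these names, which gave 14 of its 50599 gene probes. The rule uses names alone. All 14 probes were well above background on all 12 arrays, so all of them were tested. A549, PC14 and PC14CDDP are human lung cancer lines, and PC14CDDP is a cisplatin-resistant line derived from PC14. Each line was transfected at 25 nM with premiR-197 (a synthetic precursor of miR-197, called pre-miR-197 here), AllStar-NC (its negative control, NC), LNA-miR-197 (a locked nucleic acid oligonucleotide against the miRNA) or LNA-miR-NC (its control, LNA-NC). All cultures grew in the same serum-containing medium and received DharmaFECT 1, and none was left untransfected. From each of the 12 cultures 100 ng of total RNA was labelled with Cy3 and hybridized to 1 Agilent array, so that no transfection was repeated within a line.

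Primary miRNA transcripts are cut in the nucleus by the Microprocessor, which consists of the ribonuclease DROSHA and its RNA-binding partner DGCR8. The hairpin precursor leaves the nucleus with exportin 5, encoded by XPO5, and is cut again in the cytoplasm by DICER1 with its double-stranded RNA-binding partner TARBP2. One strand is loaded into an Argonaute protein, of which EIF2C2 is able to cleave a matching RNA, and the TNRC6 (GW182) proteins connect Argonaute to the enzymes that shorten the poly(A) tail and remove the cap of the target. A transfected precursor uses the later steps of this pathway, and a locked nucleic acid inhibitor binds the loaded miRNA.

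The miRNA that was added or blocked is shown because all transfections were designed around it. RefSeq (GRCh38.p14) places its arms on the plus strand at chr1:109598901-109598923 (hsa-miR-197-5p) and chr1:109598940-109598961 (hsa-miR-197-3p). In the sequences, written 5′ to 3′, capitals mark the seed, bases 2 to 8, with which a miRNA pairs to its targets. The labels do not state which arm the reagents supplied or blocked, and the array has no probe named for miR-197, so its level was not measured here.
hsa-miR-197-5p: cGGGUAGAgagggcagugggagg
hsa-miR-197-3p: uUCACCACcuucuccacccagc

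Levels are log2 of the background-subtracted signal of a probe minus that of the array's 75th percentile, so that 0 is the level of a probe at that percentile and 1 unit is a 2-fold difference. A level compares arrays for 1 probe, and levels of different probes were not set against each other. That percentile ranged over arrays from 614 to 715 in signal, and each array had 55.8% to 63.1% of its probes well above background. Slide 1 carried A549 and slide 2 both PC14 and PC14CDDP, so A549 and its slide cannot be told apart. On slide 2, PC14 took row 1 and PC14CDDP row 2, so these lines and their rows cannot be told apart. A given transfection always took the same column of its slide, so transfection and position cannot be told apart either. Of 5 epithelial markers, KRT8, KRT18 and KRT19 were well above background on all arrays of each line, while CDH1 and EPCAM were so on all 4 A549 arrays, on 2 and 3 PC14 arrays and on 0 PC14CDDP arrays. Of 4 lung lineage markers, NAPSA and SFTPC were well above background on all 4 arrays of each line, NKX2-1 on all 4 arrays of PC14 and of PC14CDDP and 0 of A549, and SFTPB on 0 arrays of any line. RNA came from whole cultures, so fewer cells that express a gene and less RNA per cell cannot be told apart.

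Between PC14CDDP and PC14, 9 of the 14 probes passed an adjusted p of 0.05 (limma, Benjamini-Hochberg over 33715 probes), beside 48.7% of all probes tested. Of these, 5 passed without the NC arrays and 5 without the transfection as a block, beside 38.0% of all probes in either setting. In PC14CDDP 7 probes were higher (DROSHA, DGCR8, XPO5 with 2 of its 3 probes, TARBP2, TNRC6A and 1 probe of TNRC6C; 25.1% of all probes) and 2 were lower (EIF2C2 and TNRC6B; 23.5% of all probes). Between A549 and PC14, 11 probes passed, 9 lower in A549 and 2 higher, beside 67.4% of all probes, of which 33.1% were lower and 34.4% higher. Between A549 and PC14CDDP all 14 passed, 12 lower in A549 and 2 higher, beside 70.1% of all probes, of which 34.7% were lower and 35.5% higher. The median log2 ratio of the 14 probes was 0.30 for PC14CDDP against PC14, -1.12 for A549 against PC14 and -1.13 for A549 against PC14CDDP, beside medians of 0.04, 0.05 and 0.03 over all probes tested. These medians and counts are by probe, so XPO5 enters with 3 probes and EIF2C1 and TNRC6C with 2 each. No median by gene was taken. With 1 probe per gene, 8, 7 and 10 of the 10 genes passed in these comparisons, beside 48.3%, 68.2% and 70.5% of all probes there. The 4 arrays of a line did not overlap with those of the other at 7, 9 and 13 of the 14 probes in these comparisons, beside 36.1%, 57.8% and 55.5% of all probes. These arrays are differently transfected cultures of 1 line each, so the p-values measure the spread between such cultures and not between independent lines.

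DROSHA, the ribonuclease of the Microprocessor, was lowest in A549 and highest in PC14CDDP, with no overlap between the lines. Its probe lies at chr5:31401473-31401532 (hg19, the build of all probe positions here). Values are given in the order NC, pre-miR-197, LNA-NC and LNA-miR-197 throughout. DROSHA stood at 3.89, 4.04, 3.85 and 3.86 in A549, at 4.77, 5.02, 4.93 and 4.75 in PC14 and at 5.12, 5.38, 5.12 and 5.14 in PC14CDDP. Every neighbouring pair of lines differed: the log2 ratio was -0.96 ± 0.074 (SE, adjusted p = 9.06e-06) for A549 against PC14 and 0.32 ± 0.074 (SE, adjusted p = 0.00723) for PC14CDDP against PC14. The latter call was lost when the NC arrays were left out (log2 ratio 0.31, adjusted p = 0.0578).

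DGCR8, the RNA-binding subunit of the Microprocessor (chr22:20098916-20098975), followed the same order of lines with a wider spread. It stood at -0.42, -0.10, -0.22 and -0.22 in A549, at -0.39, 0.23, 0.072 and 0.34 in PC14 and at -0.042, 0.96, 0.62 and 0.97 in PC14CDDP. The arrays of PC14CDDP and PC14 overlapped, because the NC array was the lowest in both lines, and yet each of the 4 transfections was higher in PC14CDDP. The log2 ratio was 0.56 ± 0.13 (SE, adjusted p = 0.0072) for PC14CDDP against PC14. That call was lost without the transfection as a block (adjusted p = 0.0719) and with the methods' t-test (adjusted p = 0.191). A549 and PC14 were not told apart (log2 ratio -0.30 ± 0.13, adjusted p = 0.0688, 95% interval from -0.60 to -0.003), and without the NC arrays this difference passed (log2 ratio -0.39, adjusted p = 0.0279).

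XPO5, which encodes the export receptor for miRNA precursors, was measured by 3 probes that gave the same order of lines. Probe A lies at chr6:43490583-43490642, probe B at chr6:43491398-43491457 and probe C at chr6:43494424-43494483. Probe A stood at 0.27, 0.41, -0.034 and -0.18 in A549, at 1.45, 1.68, 1.52 and 1.62 in PC14 and at 1.84, 2.21, 2.09 and 1.76 in PC14CDDP. Every A549 array was below every array of the other lines for all 3 probes. The fold by which A549 was below PC14 was 2.73 (log2 ratio -1.45 ± 0.12, adjusted p = 1.37e-05) for probe A, 2.55 for probe B and 3.32 for probe C. PC14CDDP was above PC14 by a log2 ratio of 0.41 ± 0.12 (SE, adjusted p = 0.0224) at probe A, 0.36 ± 0.11 (SE, adjusted p = 0.0271) at probe C and 0.28 ± 0.13 (SE, adjusted p = 0.119) at probe B, which did not pass. The calls of PC14CDDP against PC14 were not firm. That of probe A was lost without the NC, the pre-miR-197 or the LNA-NC arrays (adjusted p = 0.0604, 0.102 and 0.0978), and that of probe C without the NC, the pre-miR-197 or the LNA-miR-197 arrays (adjusted p = 0.0984, 0.0748 and 0.096) and after quantile normalization (adjusted p = 0.0611).

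DICER1, the cytoplasmic ribonuclease of the pathway, ran the other way and was highest in A549. Its probe lies at chr14:95552615-95552674. It stood at 1.70, 1.35, 1.18 and 0.95 in A549, at 1.11, 0.34, 0.62 and 0.50 in PC14 and at 1.61, 0.35, 0.91 and 0.46 in PC14CDDP. The lines overlapped, yet A549 was above both other lines in each of the 4 transfections. The log2 ratio was 0.65 ± 0.15 (SE, adjusted p = 0.00429) for A549 against PC14 and 0.46 ± 0.15 (SE, adjusted p = 0.0206) for A549 against PC14CDDP. The second of these was lost without the pre-miR-197 arrays (log2 ratio 0.28, adjusted p = 0.0922) or the LNA-miR-197 arrays (adjusted p = 0.0648). PC14CDDP and PC14 were not told apart, with a difference of 0.19 ± 0.15 (SE, adjusted p = 0.334) and a 95% interval from -0.15 to 0.52.

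TARBP2, the Dicer partner, was highest in PC14CDDP. Its probe (chr12:53899897-53899956) stood at 1.78, 1.83, 1.57 and 2.04 in A549, at 1.66, 1.69, 1.71 and 1.998 in PC14 and at 2.19, 2.14, 2.13 and 2.86 in PC14CDDP, where every array was above every array of the other lines. PC14CDDP was 1.48-fold above PC14 (log2 ratio 0.57 ± 0.10, adjusted p = 0.00232) and 1.44-fold above A549 (log2 ratio -0.53 ± 0.10, adjusted p = 0.00196 for A549 against PC14CDDP). Both calls were lost with the methods' t-test (adjusted p = 0.0721 and 0.068). A549 and PC14 were not told apart, with a log2 ratio of 0.041 ± 0.10 (SE, adjusted p = 0.741) and a 95% interval from -0.20 to 0.28.

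EIF2C2, the Argonaute that can cleave its target, differed between every pair of lines and was highest in PC14. The array holds its probe (chr8:141541947-141542006) in 10 spots, whose values within an array had an SD between 0.036 and 0.096 on the log2 scale. EIF2C2 stood at 1.91, 2.06, 2.17 and 2.22 in A549, at 3.99, 4.45, 4.26 and 4.41 in PC14 and at 3.16, 3.70, 3.33 and 4.003 in PC14CDDP. A549 was below the other lines on every array, and PC14 and PC14CDDP overlapped by 1 pair of arrays, the LNA-miR-197 array of PC14CDDP and the NC array of PC14. A549 was 4.54-fold below PC14 (log2 ratio -2.18 ± 0.12, adjusted p = 1.23e-06) and 2.74-fold below PC14CDDP (log2 ratio -1.46 ± 0.12, adjusted p = 1.04e-05). PC14CDDP was 1.65-fold below PC14 (log2 ratio -0.73 ± 0.12, adjusted p = 0.00131) and lower in all 4 transfections.

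EIF2C1, a second guide-binding Argonaute, has 2 probes that gave the same order of lines and different sizes. Probe A lies at chr1:36386500-36386559 and probe B farther along the plus strand at chr1:36389840-36389899. Probe A stood at -1.89, -1.62, -2.16 and -1.82 in A549, at 0.75, 1.32, 0.44 and 0.87 in PC14 and at 0.57, 0.82, -0.10 and 0.94 in PC14CDDP. Probe B, at 2.62, 2.55, 2.52 and 2.62, 3.34, 3.34, 3.23 and 3.31 and 3.16, 2.93, 2.88 and 3.29 in the same order of lines, varied far less. A549 was 6.56-fold below PC14 at probe A (log2 ratio -2.71 ± 0.13, adjusted p = 5.09e-07) and 1.66-fold below it at probe B (log2 ratio -0.73 ± 0.088, adjusted p = 0.000124). Over the 4 transfections the A549 to PC14 log2 ratio ran from -2.94 to -2.59 at probe A and from -0.79 to -0.69 at probe B, so the values of the probes did not overlap. Which transcripts each probe reports was not determined here. PC14CDDP and PC14 did not pass at either probe (log2 ratio -0.29 ± 0.13, adjusted p = 0.0945 at A, log2 ratio -0.24 ± 0.088, adjusted p = 0.0517 at B), although both passed without the LNA-miR-197 arrays (log2 ratio -0.41, adjusted p = 0.0374 at A, and log2 ratio -0.32, adjusted p = 0.0276 at B). Probe B also passed with quantile normalization (adjusted p = 0.0145), normexp (adjusted p = 0.0192), the filter on all arrays (adjusted p = 0.0356), 1 probe per gene (adjusted p = 0.0488) and the trend and robust prior (adjusted p = 0.0221).

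The Argonaute genes that were not members lie beside EIF2C1 on chromosome 1 and were lower in A549 too. EIF2C4 (AGO4, probe at chr1:36320420-36320479) had a mean level of -2.96 ± 0.28 (SD, n = 4 arrays) in A549, -2.10 ± 0.19 in PC14 and -2.40 ± 0.32 in PC14CDDP. EIF2C3 (AGO3), at its probe at chr1:36521552-36521611, stood at 0.25 ± 0.19 in A549, 1.73 ± 0.19 in PC14 and 2.38 ± 0.29 in PC14CDDP, and at its probe at chr1:36439052-36439111 at 0.08 ± 0.16, 1.51 ± 0.11 and 1.54 ± 0.28. All 3 of these probes were lower in A549 than in PC14 and than in PC14CDDP, and 1 EIF2C3 probe was higher in PC14CDDP than in PC14 (log2 ratio 0.64 ± 0.11, adjusted p = 0.00203) while the other was not called.

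The TNRC6 scaffold genes went in different directions. TNRC6A (chr16:24835610-24835669) stood at 0.62, 0.88, 0.62 and 0.81 in A549, at 0.53, 0.82, 0.71 and 0.91 in PC14 and at 1.34, 1.39, 1.31 and 1.58 in PC14CDDP. It was 1.58-fold higher in PC14CDDP than in PC14 (log2 ratio 0.66 ± 0.079, adjusted p = 0.00024), with no overlap, while A549 and PC14 differed by -0.0088 ± 0.079 (SE, adjusted p = 0.929) (95% interval from -0.19 to 0.17). TNRC6B (chr22:40719222-40719281) had the opposite difference between these lines. It stood at 0.00035, 0.03, 0.28 and 0.22 in A549, at 1.59, 1.58, 1.64 and 1.62 in PC14 and at 1.15, 1.06, 1.02 and 1.205 in PC14CDDP, and no 2 lines overlapped. TNRC6B was 1.41-fold lower in PC14CDDP than in PC14 (log2 ratio -0.50 ± 0.086, adjusted p = 0.0017) and 2.78-fold lower in A549 than in PC14 (log2 ratio -1.48 ± 0.086, adjusted p = 1.77e-06).

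The 2 probes of TNRC6C opposed each other in A549. Probe A (chr17:76101674-76101733) stood at 1.01, 1.17, 0.73 and 1.11 in A549, at 0.68, 0.64, 0.50 and 0.30 in PC14 and at 0.55, 0.55, 0.62 and 0.62 in PC14CDDP, and A549 was higher than PC14 (log2 ratio 0.47 ± 0.12, adjusted p = 0.00711) and than PC14CDDP (log2 ratio 0.42 ± 0.12, adjusted p = 0.0123). The latter call was lost without the NC arrays (adjusted p = 0.055) or the pre-miR-197 arrays (adjusted p = 0.0765). Probe B (chr17:76104813-76104872) stood at -5.71, -5.69, -4.19 and -5.91 in A549, at -4.24, -4.08, -4.03 and -4.01 in PC14 and at -3.84, -3.50, -2.85 and -3.12 in PC14CDDP. Here A549 was lower than PC14 (log2 ratio -1.29 ± 0.27, adjusted p = 0.0027) and than PC14CDDP (log2 ratio -2.05 ± 0.27, adjusted p = 0.000165), and the LNA-NC array of A549 stood apart from its other arrays. PC14CDDP was above PC14 at probe B (log2 ratio 0.76 ± 0.27, adjusted p = 0.0435), a call lost without the NC, the pre-miR-197 or the LNA-miR-197 arrays (adjusted p = 0.0863, 0.106 and 0.0857) and without the filter on dim probes (adjusted p = 0.059). With normexp background correction the ratios of probe B shrank to -0.32 for A549 against PC14 and -0.74 for A549 against PC14CDDP, and both still passed (adjusted p = 0.0194 and 8.17e-05). No direction is given for TNRC6C as a gene.

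**Figure D1:**
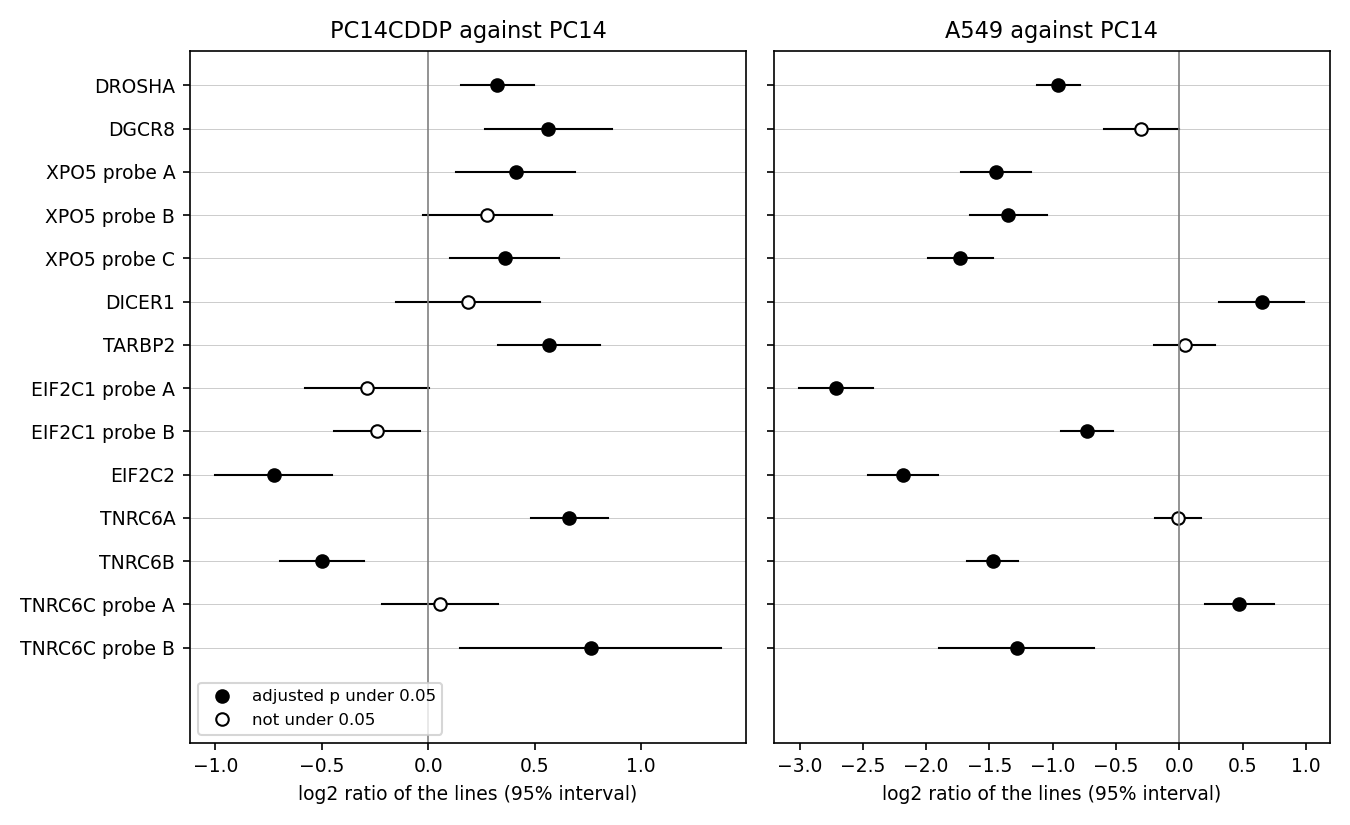
Log2 ratio of PC14CDDP over PC14 (left) and of A549 over PC14 (right) for each probe, with its 95% interval from limma over 4 arrays a line; filled points have an adjusted p under 0.05. EIF2C1, EIF2C2, XPO5 and TNRC6B lie well below 0 on the right, and the probes of TNRC6C lie on either side of it.

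Markers of other cell types moved with the lines as well. Of 3 fibroblast markers 1 (COL1A1), of 3 blood cell markers 2 (PTPRC and CD14) and of 2 endothelial markers CDH5 were well above background on all 4 arrays of each line, and PECAM1 was so in PC14 only, with 1 array in A549 and 0 in PC14CDDP. COL1A2 and DCN were well above background on 0 arrays. The summed level of the blood cell markers, with the 75th percentile of the array as 1, had a range of 1.78 to 2.09 on the A549 arrays, 0.14 to 0.24 on those of PC14 and 0.14 to 0.49 on those of PC14CDDP. That of the fibroblast markers was 0.26 to 1.10, 0.063 to 0.17 and 0.048 to 0.096, and that of the endothelial markers 0.11 to 0.15, 0.36 to 0.62 and 0.089 to 0.12. The epithelial sum was 301 to 416, 155 to 227 and 159 to 229. Their part in the differences between lines was not tested.

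After pre-miR-197, 0 of the 14 probes passed against NC (limma), beside 0.0801% of all probes. At an unadjusted p under 0.05 there were 5, beside 15.9% of all probes. DICER1 had the largest ratio of the members and was lower in all 3 lines (-0.35 in A549, -0.77 in PC14 and -1.26 in PC14CDDP), with a mean of -0.79 ± 0.17 (SE, adjusted p = 0.104) over n = 3 lines. DGCR8 was higher in all 3 lines (0.32 in A549, 0.61 in PC14 and 1.00 in PC14CDDP), with a mean of 0.64 ± 0.15 (SE, adjusted p = 0.12). These 2 probes, 1 lower and 1 higher, were the only members that changed by at least 1.2-fold the same way in all 3 lines, beside 4.78% of all probes lower and 4.08% higher. Both passed in some other settings. DICER1 passed with normexp background correction (log2 ratio -0.68, adjusted p = 0.038) and with a trend and robust prior (adjusted p = 0.0361). It also passed with probes well above background on all arrays (adjusted p = 0.0418). DGCR8 passed with normexp (log2 ratio 0.59, adjusted p = 0.0415) and with the trend and robust prior (adjusted p = 0.0482). Over all probes, 1.91% passed with normexp, 1.70% with that prior and 2.32% with that filter. Neither passed with slide as the block (adjusted p = 0.731 for DICER1 and 0.991 for DGCR8) or without the cell line as a block. Neither passed with any 1 line left out. Without A549, PC14 or PC14CDDP the adjusted p was 0.175, 0.717 and 0.489 for DICER1. For DGCR8 it was 0.175, 0.720 and 0.501.

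The remaining members after pre-miR-197 lay closer to their controls. EIF2C2 had a log2 ratio of 0.38 ± 0.14 (SE, adjusted p = 0.239), and it was higher than NC in all 3 lines (0.15 in A549, 0.45 in PC14 and 0.55 in PC14CDDP). EIF2C1 had 0.37 ± 0.15 (SE, adjusted p = 0.273) at probe A and -0.10 ± 0.10 (SE, adjusted p = 0.698) at probe B, of opposite sign. DROSHA was slightly higher in every line (0.15 in A549, 0.25 in PC14 and 0.26 in PC14CDDP), by 0.22 ± 0.086 (SE, adjusted p = 0.272). TARBP2 had a difference of 0.01 ± 0.12 (SE, adjusted p = 0.977), with a 95% interval from -0.27 to 0.29, and TNRC6B one of -0.026 ± 0.10 (SE, adjusted p = 0.927), with a 95% interval from -0.26 to 0.20. The median log2 ratio of the 14 probes was 0.16, beside 0.03 over all probes.

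After LNA-miR-197, TARBP2 and probe A of EIF2C1 were higher than on LNA-NC and passed the test. They are 2 of 14 probes, beside 7.95% of all probes called (3.92% higher), and 0 members were lower (4.02% of all probes). TARBP2 rose in every line (0.47 in A549, 0.29 in PC14 and 0.73 in PC14CDDP), 1.41-fold on average (log2 ratio 0.50 ± 0.12, adjusted p = 0.0458, n = 3 lines). Its LNA-miR-197 array was the highest of the 4 in each line, as the values above show. EIF2C1 rose at probe A in every line (0.34 in A549, 0.43 in PC14 and 1.04 in PC14CDDP), 1.52-fold on average (log2 ratio 0.61 ± 0.15, adjusted p = 0.0454). Here the LNA-NC array was the lowest of the 4 in each line, and against NC the LNA-miR-197 array was higher by only 0.08 in A549, 0.12 in PC14 and 0.38 in PC14CDDP. At probe B, EIF2C1 was higher in every line (0.10 in A549, 0.078 in PC14 and 0.41 in PC14CDDP) and did not pass (log2 ratio 0.20 ± 0.10, adjusted p = 0.253).

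Neither call was firm. Both lay just under the threshold and were lost with any 1 line left out: without A549, PC14 or PC14CDDP the adjusted p was 0.122, 0.228 and 0.277 for TARBP2 and 0.104, 0.222 and 0.291 for EIF2C1 probe A. Without the cell line as a block neither passed (adjusted p = 1.00 for both). Without A549 only the arrays of slide 2 remain, so these first values are also those within slide 2. The remaining 12 probes did not pass. Among them EIF2C2 (0.054 in A549, 0.15 in PC14 and 0.67 in PC14CDDP; mean log2 ratio 0.29 ± 0.14, adjusted p = 0.216) and TNRC6A (0.19 in A549, 0.20 in PC14 and 0.27 in PC14CDDP; mean log2 ratio 0.22 ± 0.091, adjusted p = 0.167) were above LNA-NC in all 3 lines, and DICER1 was below it (-0.22 in A549, -0.12 in PC14 and -0.45 in PC14CDDP; mean log2 ratio -0.26 ± 0.17, adjusted p = 0.355). For DROSHA the mean difference was -0.049 ± 0.086 (SE, adjusted p = 0.755), with a 95% interval from -0.25 to 0.15. TNRC6C probe B had the largest ratio of all members (log2 ratio -0.66 ± 0.31, adjusted p = 0.208). The lines differed there, with -1.72 in A549, 0.013 in PC14 and -0.27 in PC14CDDP. The A549 value rests on the LNA-NC array that stood apart at this dim probe. Over the settings the mean log2 ratio ran from -0.996 to -0.13, and at probe A of TNRC6C it was 0.056.

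**Figure D2:**
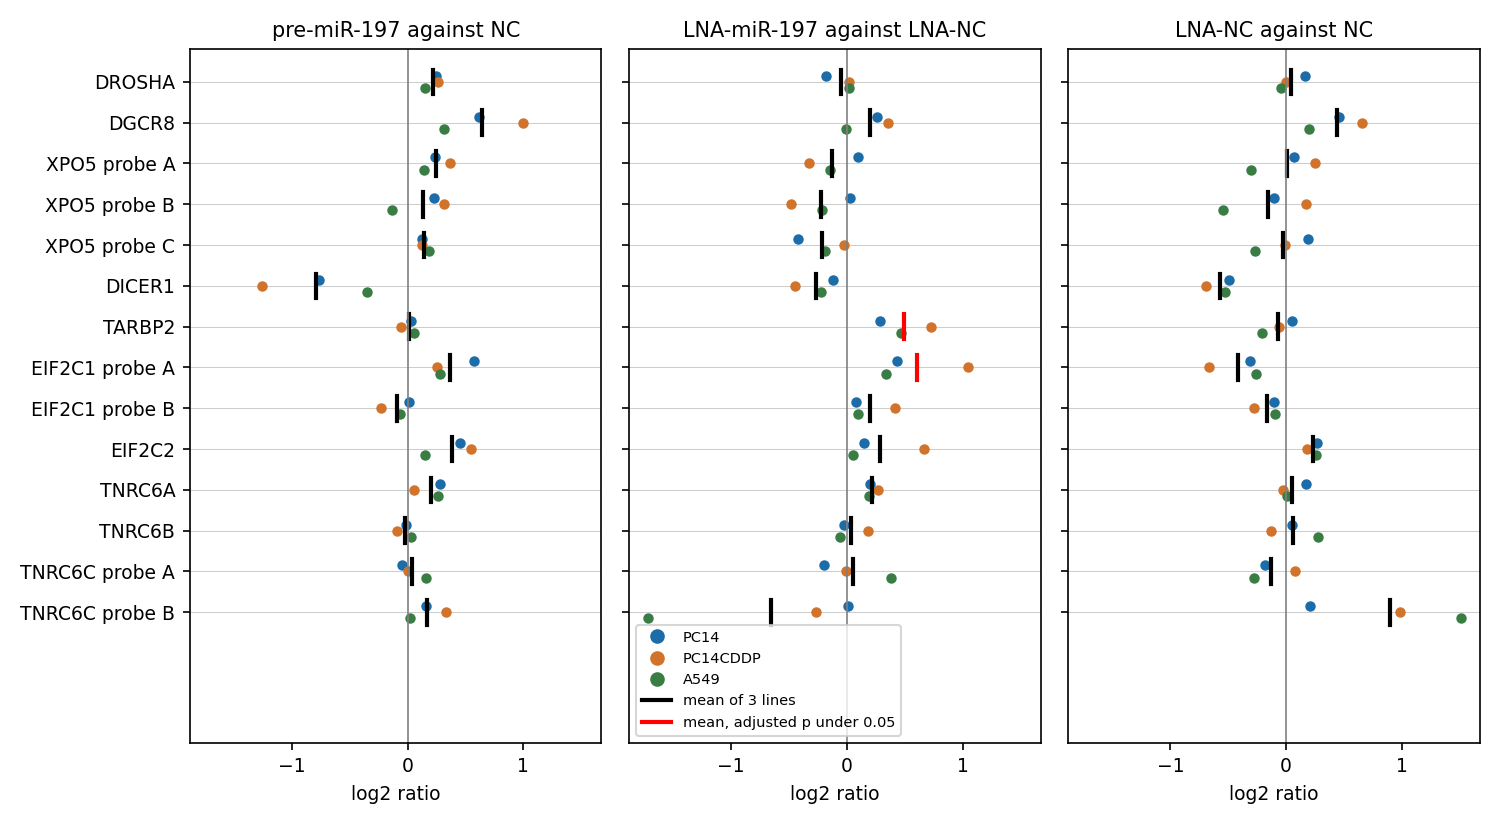
Log2 ratio of pre-miR-197 over NC, of LNA-miR-197 over LNA-NC and of LNA-NC over NC (panels) for each probe; points are the 3 cell lines, 1 array pair each, and the bar is their mean, red where the adjusted p was under 0.05. The red bars are TARBP2 and EIF2C1 probe A after LNA-miR-197, and DICER1 lies below 0 in all panels and lines.

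The responses to the mimic and to the inhibitor were compared directly, as the pre-miR-197 response minus the LNA-miR-197 response. No member passed (0 of 14 by limma, beside 0.0504% of all probes), and 1 had an unadjusted p under 0.05, beside 18.5% of all probes. TARBP2 had the smallest adjusted p, with a difference of -0.49 ± 0.17 (SE, adjusted p = 0.191) that was negative in all 3 lines. DICER1 followed the same sign in all 3 lines (log2 ratio -0.53 ± 0.24, adjusted p = 0.287), and DGCR8 the opposite one (log2 ratio 0.44 ± 0.21, adjusted p = 0.314).

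The controls were compared with each other as well. LNA-NC against NC gave 0 of 14 calls by limma (beside 0.454% of all probes), and 4 had an unadjusted p under 0.05, beside 13.2% of all probes. This comparison shares the NC arrays with pre-miR-197 against NC and the LNA-NC arrays with LNA-miR-197 against LNA-NC, so values are set side by side only. DICER1 was lower on LNA-NC than on NC in every line (-0.52 in A549, -0.49 in PC14 and -0.69 in PC14CDDP; mean log2 ratio -0.57 ± 0.17, adjusted p = 0.203), and EIF2C1 probe A was too (-0.26 in A549, -0.31 in PC14 and -0.67 in PC14CDDP; mean log2 ratio -0.41 ± 0.15, adjusted p = 0.28). These were the 2 members lower by at least 1.2-fold in all 3 lines, beside 4.27% of all probes. TNRC6C probe B had the largest ratio of the members (log2 ratio 0.90 ± 0.31, adjusted p = 0.261). It was higher on LNA-NC in every line (1.51 in A549, 0.21 in PC14 and 0.99 in PC14CDDP). This probe was dim, and its A549 ratio rests on the LNA-NC array that stood apart, at -4.19 with the next at -5.69. Over the settings its mean log2 ratio ran from 0.34 to 1.25. At probe A of TNRC6C the log2 ratio was -0.13 ± 0.14 (SE, adjusted p = 0.751). DGCR8 was higher on LNA-NC in every line (0.20 in A549, 0.46 in PC14 and 0.66 in PC14CDDP; mean log2 ratio 0.44 ± 0.15, adjusted p = 0.262).

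DICER1 was therefore highest on the NC array of each line, above pre-miR-197, LNA-NC and LNA-miR-197 alike. Set against NC, the LNA-miR-197 array of A549 had a log2 ratio of -0.75, that of PC14 -0.61 and that of PC14CDDP -1.14. DGCR8 and EIF2C2 had the reverse pattern and were lowest on the NC array in each line. Over all probes tested, 4.71% were highest and 4.36% lowest on NC in all 3 lines, so 1 and 2 of 14 members stand beside these shares. This pattern was looked for after the values had been seen, and since NC had the same slide column in each line, the NC transfection and its position cannot be told apart.

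**Figure D3:**
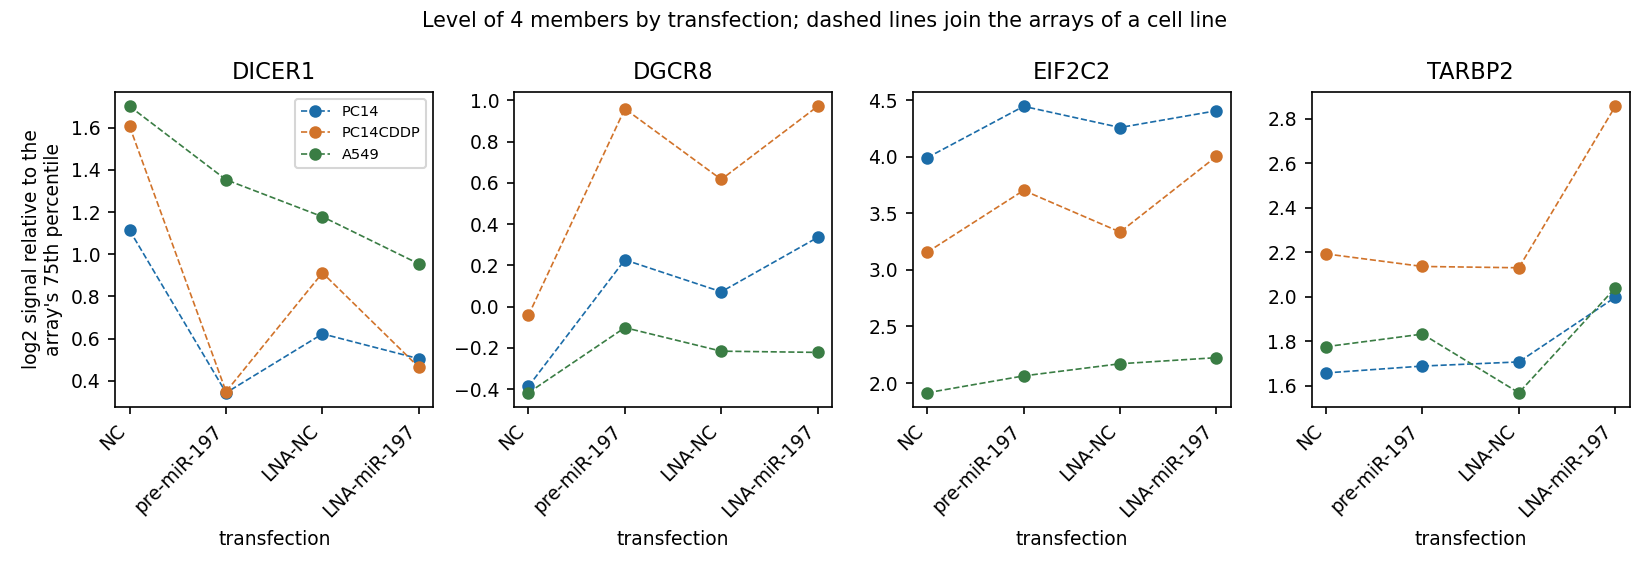
Level of DICER1, DGCR8, EIF2C2 and TARBP2 (y axes, log2 signal, 75th percentile of each array set to 0, each panel with its own range) on each array by transfection; dashed lines join the arrays of 1 cell line. DICER1 is highest and DGCR8 and EIF2C2 are lowest on NC in all 3 lines, and TARBP2 is highest on LNA-miR-197.

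Other genes of the pathway, 44 genes with 79 probes of which 77 were tested, were taken from lists by step of the pathway. In PC14CDDP against PC14, 38 of the 77 probes were higher and 12 lower (64.9% called), with a median log2 ratio of 0.31, beside 25.1% higher, 23.5% lower and a median of 0.04 over all probes tested. The tailing and turnover list had 11 of 15 probes higher and 0 lower. In it LIN28B, which binds let-7 precursors, was 17.5-fold higher in PC14CDDP (log2 ratio 4.13 ± 0.12, adjusted p = 1.6e-07), and the uridylyltransferase gene ZCCHC6 (TUT7) was higher at all 3 probes, up to a log2 ratio of 1.59 ± 0.18. Of the nuclear cofactors 9 of 15 probes were higher and 2 lower: the cap-binding gene NCBP1 was 4.53-fold higher and the Microprocessor helicase gene DDX17 3.14-fold lower, at the probe of each with the larger ratio. The DDX17 probes had log2 ratios of -1.65 and -0.43, and those of NCBP1 2.18 and 1.63. The helicase gene MOV10, among the cofactors of the RNA-induced silencing complex (10 of 16 probes higher, 2 lower), was 3.37-fold lower. The deadenylation and decapping list was split, with 6 of 24 probes higher, such as CNOT7 (1.99-fold at the probe with the larger ratio), and 8 lower, such as XRN1 (1.74-fold). One CNOT2 probe in this list was not well above background on any PC14 array and was at least 1.96-fold higher in PC14CDDP (adjusted p = 0.000652), against the lowest signal well above background on each array.

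In A549, against PC14, 39 of the 77 probes were lower and 17 higher (72.7% called, beside 67.4% of all probes, with a median log2 ratio of -0.30), and against PC14CDDP 51 were lower and 6 higher (74.0% called, beside 70.1% of all probes, with a median of -0.56). MOV10 was 4.03-fold and KHSRP, which binds precursor loops, 2.97-fold lower than in PC14. The editing enzyme gene ADARB1 was 3.66-fold lower than in PC14 at 1 of its 2 probes, and ADAR was 1.37-fold higher. DIS3L2, an exonuclease of uridylated precursors, was 3.06-fold higher at 1 of its 5 probes, with 3 called higher and 1 lower, and ZCCHC6 had 1 of 3 probes called higher and 2 lower than PC14, so no direction is given for these genes. LIN28B was 1.98-fold higher than in PC14 and 8.84-fold lower than in PC14CDDP. HSP90AB1 and HSPA8, chaperone genes, were lower than in PC14 at all their probes, with log2 ratios of -0.87 and -0.83 for HSP90AB1 and from -1.50 to -0.51 over the 3 probes of HSPA8.

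After transfection these lists had few calls. With pre-miR-197 against NC, 0 of the 77 probes passed in limma, and 0 passed in LNA-NC against NC and in the difference of responses. At an unadjusted p under 0.05 these comparisons had 20, 9 and 19 of the 77, beside 15.9%, 13.2% and 18.5% of all probes. With LNA-miR-197 against LNA-NC 4 were higher and 4 lower (10.4%, beside 7.95% of all probes). The higher ones were CNOT1, the scaffold of a deadenylase complex (log2 ratio 0.63 ± 0.11, adjusted p = 0.0226), TSNAX (log2 ratio 0.77 ± 0.16, adjusted p = 0.0306, 1 of 2 probes), the decapping gene DCP2 (log2 ratio 0.43 ± 0.10, adjusted p = 0.0411) and 1 of 3 probes of ZCCHC6 (log2 ratio 1.17 ± 0.22, adjusted p = 0.0269), which on LNA-NC was well above background on 1 of 3 arrays. Lower were SND1 (log2 ratio -0.68 ± 0.11, adjusted p = 0.0212), the deadenylase genes PAN2 (log2 ratio -0.51 ± 0.11, adjusted p = 0.0345) and CNOT6L (log2 ratio -0.58 ± 0.12, adjusted p = 0.0298, 1 of 2 probes), and ADARB1 (log2 ratio -0.77 ± 0.17, adjusted p = 0.0375, 1 of 2 probes). All 8 calls were lost with any line left out.

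The genes whose profile over the 12 arrays lay nearest to 3 members were found by the root mean square difference of log2 levels, each centred on its own mean, among 24613 probes well above background on all arrays. For DROSHA these were RPS10 (0.060), OLA1 (0.083) and a transcript listed as THC2623999 (0.085), beside a median of 0.66 over all probes and 0.55 for DROSHA around its own mean. DICER1 was nearest to C16orf93 (0.14), SUMF1 (0.18) and TTC30B (0.18), beside a median of 0.64 and 0.46 for DICER1 around its own mean. EIF2C2 was nearest to WARS2 (0.16), RREB1 (0.17) and HIST1H2BK (0.18), beside a median of 1.00 and 0.94 for EIF2C2 around its own mean. The genes named have the smallest differences by choice, so they lie below the median in any case. The 12 arrays come from 3 lines and are not independent of each other.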

How the data were processed

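RNA from 12 transfected cultures was hybridized to 12 one-colour Agilent arrays, and the authors deposited the scanner intensity of every spot, background-subtracted by Agilent Feature Extraction 10.7.3.1 (version per the submitters' processing notes). The deposited value table held the same intensity values as the scanner files, and any further normalization is not given in the sources used here. No columns of other samples were present. Control spots and outlier-flagged spots were left out, spots of 1 probe were averaged, and from log2 of the deposited signal the array's own log2 75th percentile was subtracted.

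Probes well above background on at least 3 of 12 arrays were tested (33715 of 50599; 106 were left out for missing values). The linear model of limma 3.58.1 (R 4.3.3) held transfection and cell line on all 12 arrays, with Benjamini-Hochberg adjustment over all probes tested and a threshold of 0.05. The cell line was the replicate of a transfection. It pairs the arrays by shared line, and deviations of same-line arrays from the transfection means correlated at 0.845 to 0.947. PC14CDDP is derived from PC14 and shares its slide, so the lines are not fully independent replicates. The p-values of the transfection comparisons carry this limit. Tables and figures were made in Python 3.11.15 with pandas 2.3.3 and matplotlib 3.10.9. The model was tested on simulated data for pre-miR-197 against NC, with 200 of 33715 probes changed. It recovered 46% of them at a log2 change of 1 and 80.5% at 2, with 6 and 10 false calls. A probe that did not pass may therefore still have changed. The number of arrays limits the precision. Intervals are at 95%.

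Every member probe is named. From the other pathway lists, the genes with a called probe were eligible, up to 4 per list and comparison by the size of the log2 ratio, and examples of these are given. Members, lists and tests were chosen with earlier results of these data known. Alternatives were quantile normalization, normexp correction (offset 50), the deposited table, other filters, 1 probe per gene, a trend and robust prior, no replicate block, fewer arrays, slide as a block, the methods' t-test and leaving out arrays.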

Additional observations from a re-analysis of the deposited data

Results flagged for a closer look

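In 4 of 42 sets of the 4 arrays of a line at a member probe, 1 array lay far from the others by Dixon's criterion, which chance meets in about 1 in 20 sets. DROSHA in PC14CDDP was highest on the pre-miR-197 array, at a log2 level of 5.38, with the next array at 5.14. TARBP2 was highest on the LNA-miR-197 array in PC14, at 1.998 with the next at 1.71, and in PC14CDDP, at 2.86 with the next at 2.19. TNRC6C probe B in A549 was highest on the LNA-NC array, at -4.19, with the next at -5.69.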

How the results depend on the processing

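No value of a member changed sign where it was called. Of 1316 values of single probes under the alternatives, 1254 kept their side of the threshold. A further 3 kept it too but moved in size, those of DROSHA and XPO5 probe C after pre-miR-197 (adjusted p from 0.356 to 0.733). Another 43 fell short of the threshold and 16 newly passed. Sign changes were found in 24 values, which were called in neither setting. The deposited table is among the alternatives and could not differ, since it held the same intensities. The other filters, the prior, the choice of block and the t-test left the log2 ratio itself unchanged, so no sign could change there. For pre-miR-197 against NC, 0 member probes passed, against 2 with normexp, 1 with probes well above background on all arrays and 2 with the trend and robust prior. For LNA-miR-197 against LNA-NC, 2 passed, against 0 without a filter on dim probes, 1 with 1 probe per gene, and 0 with no replicate block, with only the arrays compared, with the methods' t-test, with slide as the block and with any line left out (0 to 0). For PC14CDDP against PC14, 9 passed, against 5 with no replicate block, 5 to 9 with 1 transfection left out, 7 with the methods' t-test, 10 with probes well above background on all arrays, 10 with the trend and robust prior and 11 with normexp. For A549 against PC14, 11 of 14 passed, against 7 of 10 with 1 probe per gene, beside 68.2% of all probes there. In that comparison 45.3% to 72.9% of all probes passed over the settings. For A549 against PC14CDDP, 12 to 14 of 14 passed, beside 47.3% to 75.3% of all probes. LNA-NC against NC and the difference of responses gave 0 members under every alternative run, and for the difference the arrays compared are all 12. The no replicate block fit also took the call from DICER1 in A549 against PC14 (adjusted p = 0.0622) and against PC14CDDP (adjusted p = 0.166). Over all probes, calls ran from 0 to 644 for pre-miR-197 against NC (27 in the report), from 0 to 4598 for LNA-miR-197 (2680), from 0 to 337 for LNA-NC against NC (153), from 0 to 910 for the difference (17) and from 10800 to 18965 for PC14CDDP against PC14 (16407). The cause of these changes was not tested. With quantile normalization EIF2C1 probe B in A549 against PC14CDDP moved from -0.49 to -0.29 and stayed called.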
